A study of Mus musculus with 6 samples.

Results

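Serpina12, the gene of vaspin, was described in mouse liver together with 6 other genes of serpin clade A, Serpina4-ps1, Serpina11, Serpina7, Serpina6, Serpina10 and Serpina3n. All probe sets annotated with 1 of these symbols alone were taken, which gave 10 of the 45101 probe sets on the array and all 7 genes, each among the 12598 genes tested. The genes were chosen by family and with their differences between genotypes on these same arrays already known, so those differences are given as a description with no test. Of the 10 probe sets, 9 passed the filter on low signal (a mean log2 signal of 5.50 over the 6 arrays), and the dimmer of 2 probe sets of Serpina12 did not. The ending of a probe set's name was _x for 1 probe set of Serpina4-ps1, whose probes can in part match other sequences, and _s for that of Serpina10, which can match several transcripts.

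Total RNA of 6 livers from male mice was hybridized to Affymetrix arrays, 1 array per mouse, and signals are MAS5 values on the log2 scale. The 3 wild-type mice (WT) and the 3 ChLO mice were 12 weeks old and had been fed 60% sucrose for 1 week. ChLO mice carry floxed Chrebp (Mlxipl) with Cre driven by the albumin promoter, so the deletion is aimed at hepatocytes and other liver cells keep the gene. The labels do not give the floxed or Cre status of the WT mice, and the groups are compared as labelled. Arrays were scaled to the same average, their medians lay between 6.38 and 6.60, and correlations between arrays ran from 0.894 to 0.954. Mlxipl itself read 12.61, 12.56 and 12.59 in WT 1, 2 and 3 and 10.34, 11.22 and 11.48 in ChLO 1, 2 and 3, and the labels do not say whether its probes lie in the deleted part. Of 9 hepatocyte markers, 8 had a named probe set and all 8 were past the filter. Their summed linear signal was 374537 to 424383 in WT and 277777 to 352577 in ChLO, lower in every ChLO liver. All 8 had lower means in ChLO, but Alb, Cps1, Tat and Ass1 singly overlapped between the groups. The sum was read with the deposited scaling only. In a whole liver, fewer cells of a type and less RNA per cell cannot be told apart.

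Serpins are proteins of a common fold, most of which trap a protease by offering it an exposed loop as bait and then snapping into a more stable shape. Clade A holds secreted serpins, many made by hepatocytes, and some of its members carry hormones in plasma in place of inhibiting proteases. Vaspin inhibits kallikrein 7 and is known as an adipokine linked to insulin sensitivity. ChREBP, the deleted factor, is activated by sugar metabolites and binds carbohydrate response elements, which are pairs of E-boxes set a short distance apart.

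Promoter windows are shown for Serpina12 and Serpina11, lower in ChLO, and for Serpina7, higher in ChLO, since these members lay on opposite sides of WT. RefSeq windows of 300 bases (250 before and 50 after the gene's start, GRCm38.p6) were found for 4 of the 7 members, Serpina12, Serpina11, Serpina7 and Serpina3n. Serpina11 and Serpina7 had 2 starts each, and the window of 1 is shown. The windows lie on the minus strand at chr12:104044394-104044693 for Serpina12, chr12:103989908-103990207 for Serpina11 and chrX:139085187-139085486 for Serpina7. Capitals mark matches to the motifs described next.
Serpina12: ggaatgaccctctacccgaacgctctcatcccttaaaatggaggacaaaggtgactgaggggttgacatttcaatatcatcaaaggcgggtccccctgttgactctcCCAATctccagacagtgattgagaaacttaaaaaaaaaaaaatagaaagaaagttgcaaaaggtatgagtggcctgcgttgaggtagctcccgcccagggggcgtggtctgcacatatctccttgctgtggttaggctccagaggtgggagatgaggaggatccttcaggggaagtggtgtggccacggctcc
Serpina11: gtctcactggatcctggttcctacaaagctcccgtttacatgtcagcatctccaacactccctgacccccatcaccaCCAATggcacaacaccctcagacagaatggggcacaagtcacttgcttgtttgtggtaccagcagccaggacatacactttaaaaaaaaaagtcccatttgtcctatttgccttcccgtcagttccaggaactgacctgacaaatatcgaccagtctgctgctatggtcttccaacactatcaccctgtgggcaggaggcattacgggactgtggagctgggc
Serpina7: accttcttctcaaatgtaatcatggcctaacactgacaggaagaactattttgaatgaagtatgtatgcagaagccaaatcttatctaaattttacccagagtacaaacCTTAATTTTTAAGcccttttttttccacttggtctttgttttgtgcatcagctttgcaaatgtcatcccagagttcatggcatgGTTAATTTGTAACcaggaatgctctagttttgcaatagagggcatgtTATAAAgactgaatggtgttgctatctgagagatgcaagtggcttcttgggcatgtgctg

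Both strands were searched for the E-box CACGTG, the carbohydrate response element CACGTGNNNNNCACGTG with up to 3 mismatches in its 12 fixed letters, the HNF1 palindrome GTTAATNATTAAC with up to 3 mismatches in 12, TATAAA and CCAAT. An exact E-box lies inside any element without mismatches, so those motifs overlap. The Serpina12 and Serpina11 windows held CCAAT, as did 37.4% of all 32851 windows of this length, and no match to the other motifs. The Serpina3n window matched none of the motifs. The Serpina7 window held the HNF1 palindrome at 2 places, the nearer at position -57 from the start with 2 mismatches, and TATAAA at -10. RefSeq lists a second start for Serpina7, from which the same matches lie at -74 and -27. An HNF1 match was found in 8.33% of all windows, TATAAA in 13.6%, an E-box in 7.15% and a carbohydrate response element in 8.56%. For scale, a window of Pklr, the liver pyruvate kinase gene in which this element is well known, held it with 2 mismatches at -170. A missing match says only that these letters are not in the window.

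Serpina12 was far lower in all ChLO livers. Its brighter probe set read 13.28, 13.36 and 13.97 in WT 1, 2 and 3 and 10.94, 9.53 and 9.31 in ChLO 1, 2 and 3. The groups did not overlap, with 2.34 log2 units between the lowest WT and the highest ChLO liver, and ChLO 1 kept the most signal. WT livers averaged 13.54 ± 0.38 and ChLO livers 9.93 ± 0.89 (mean ± SD, n = 3 each), a difference of -3.61 (SE 0.40), or 12.2-fold lower. The dimmer probe set read 6.52, 6.86 and 7.62 in WT and 5.72, 0.08 and 1.76 in ChLO, where 2 of the arrays lie deep in the noise of the method. It too put ChLO 1 highest within ChLO and WT 3 highest within WT. Among the 12598 genes tested, Serpina12 had the 5th lowest difference, the measure on which it was chosen.

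Serpina4-ps1, a transcribed pseudogene related to the kallikrein inhibitor kallistatin, was as low relative to WT. Its brightest probe set, of the _x kind, read 12.63, 12.33 and 14.40 in WT 1, 2 and 3 and 9.71, 9.36 and 9.11 in ChLO 1, 2 and 3. The difference was -3.73 (SE 0.46), or 13.2-fold lower, with 2.62 log2 units between the groups. The probe set with no suffix read 11.26, 11.11 and 12.86 in WT and 8.64, 8.68 and 8.65 in ChLO, with a difference of -3.09 (SE 0.40). The remaining probe set, of the _a kind, differed by -3.28 (SE 0.46), and its groups were 2.37 apart. All 3 probe sets thus gave the same direction, and all put WT 3 highest by a wide margin, while the ChLO livers were nearly level on the probe set without a suffix (SD 0.02, n = 3). Without WT 3 the difference of the brightest probe set was -3.09.

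Serpina11, a serpin without a well-known target, differed less. Its signals were 11.23, 11.22 and 11.96 in WT 1, 2 and 3 and 10.09, 10.18 and 10.20 in ChLO 1, 2 and 3. The groups did not overlap, and the ChLO livers lay within 0.11 log2 units of each other. The group means were 11.47 ± 0.42 and 10.16 ± 0.06 (± SD, n = 3 each), a difference of -1.32 (SE 0.22), or 2.49-fold lower.

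Serpina7 encodes thyroxine-binding globulin, which carries thyroid hormone in blood, and was the member higher in ChLO. Its signals were 11.13, 9.28 and 9.61 in WT 1, 2 and 3 and 13.45, 13.21 and 11.17 in ChLO 1, 2 and 3. The groups were separated by 0.04 log2 units only, between WT 1 and ChLO 3, while ChLO 1 and ChLO 2 stood well above. The difference was 2.61 (SE 0.62), or 6.09-fold higher, and became 3.33 without ChLO 3, 3.17 without WT 1 and 2.18 without ChLO 1. Markers of stellate cells and fibroblasts stood high in the same 2 ChLO livers. All 8 were measured and all 8 had higher means in ChLO, none was below the filter level on every array, and their summed linear signal was 6155 to 10151 in WT and 17868, 22857 and 7199 in ChLO 1, 2 and 3. The summed signals of myeloid, endothelial, lymphocyte, cholangiocyte and adipocyte markers were likewise above WT in ChLO 1 and ChLO 2, with 4713, 5123 and 3166 for endothelial markers in ChLO 1, 2 and 3 (3079 to 3806 in WT) and 1935, 1590 and 777 for lymphocyte markers (498 to 723 in WT). Of the 5 lymphocyte markers measured, 1 was past the filter, Ptprc, which carried most of the lymphocyte sum. By mean, 4 of the 5 were higher in ChLO and 1, Cd3e, was lower. The part of any of these cell types in the Serpina7 signal was not tested.

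Serpina6 encodes corticosteroid-binding globulin, the plasma carrier of glucocorticoids. It read 13.01, 12.75 and 12.43 in WT 1, 2 and 3 and 11.23, 12.59 and 13.55 in ChLO 1, 2 and 3. The ChLO livers spanned 2.32 log2 units, on both sides of the WT range of 0.58. The difference was -0.27 (SE 0.48), and it was 0.35 without ChLO 1 and -0.81 without ChLO 3, so its direction rests on single livers. Among ChLO livers the hormone carriers ran in opposite order, with Serpina6 lowest and Serpina7 highest in ChLO 1 and the reverse in ChLO 3. WT livers did not show that order, as WT 1 was the highest WT liver for both genes.

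Serpina10 encodes the protein Z-dependent protease inhibitor, which acts on clotting factors Xa and XIa. It read 12.89, 12.75 and 13.75 in WT 1, 2 and 3 and 13.19, 13.74 and 13.06 in ChLO 1, 2 and 3, and the groups overlapped (difference 0.20, SE 0.30). Serpina3n, an inhibitor of granzyme B and leukocyte proteases that inflammation induces, read 11.31, 11.46 and 11.91 in WT and 11.43, 11.92 and 11.34 in ChLO. Its difference was 0.00 (SE 0.23), and the 2 groups covered almost the same range. The direction of both rests on single livers, with -0.01 for Serpina10 and -0.18 for Serpina3n without ChLO 2. For both genes WT 3 and ChLO 2 were the highest livers of their groups. With scaling to spike-in controls, which moves the median difference of all genes from 0.06 to 0.31, Serpina3n differed by 0.25, Serpina10 by 0.45 and Serpina6 by -0.02.

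**Figure D1:**
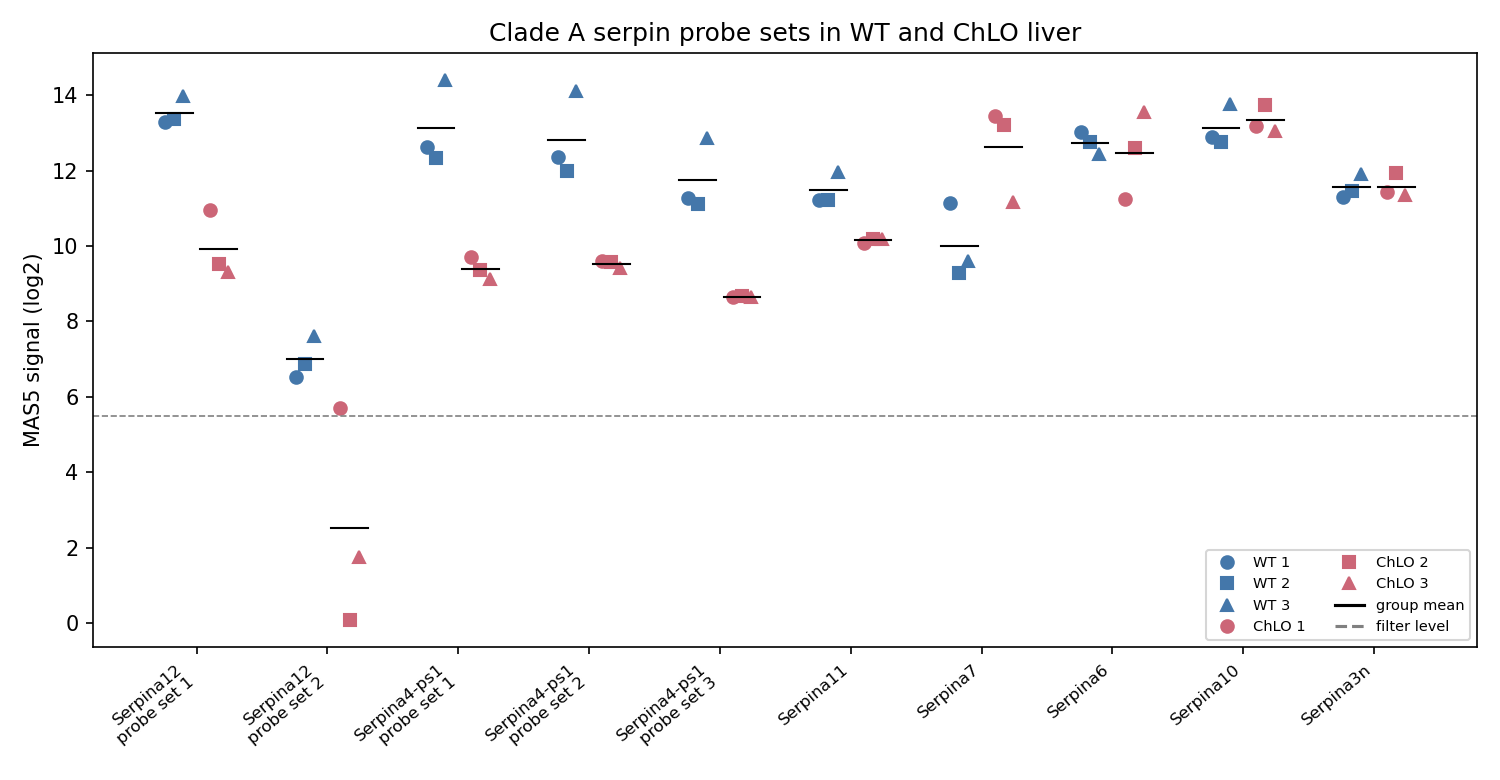
MAS5 log2 signal of every probe set of the 7 genes, with 1 point per liver (blue WT, red ChLO; circle, square and triangle for replicates 1, 2 and 3), black lines at group means and a dashed line at the filter level of 5.50. Serpina12, Serpina4-ps1 and Serpina11 lie lower in all 3 ChLO livers, Serpina7 lies higher with ChLO 3 at 11.17 beside WT 1 at 11.13, and the other genes overlap.

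By group, 3 of the 7 genes lay below every WT liver in all ChLO livers, as did 6.19% of all genes tested, and 1 of 7 lay above, as did 9.04%. The genes were chosen on this contrast and nothing is read from these shares. The median difference of the 7 was -0.27 against 0.06 over all genes tested. Tested across all genes, the limma fit called 0 of 12598 genes (0%) at an adjusted p under 0.05, with 1129 at an unadjusted p under 0.05. Of these, 441 were lower (3.50%) and 688 higher (5.46%). With spike-in scaling the counts were 179 lower and 1834 higher, so this balance depends on the scaling. The count of 1129 was 2577 without ChLO 3 and 688 without ChLO 2. Without ChLO 3 limma called 301 genes, against 3 without ChLO 1 and 0 without any other single array. Calls named below for the fit without ChLO 3 stand beside that count.

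In RefSeq's gene order, 6 of the 7 members stand in the clade A cluster of chromosome 12 and Serpina7 stands on the X chromosome. Serpina11, Serpina9, Serpina12 and Serpina4-ps1 follow each other in that order, and they carried the 4 lowest differences of the cluster, -1.32, -1.88, -3.61 and -3.73. Of these, Serpina11, Serpina12 and Serpina4-ps1 are members, chosen with their differences known. The Serpina9 groups overlapped at a dim mean signal of 6.03 (SE of the difference 0.89), and its difference was -1.11 without WT 3. Serpina5, next to Serpina4-ps1, was below the filter with a WT mean of 3.66 and a ChLO mean of 3.67. On the far side of Serpina11 no probe set of the adjoining Serpina1e alone was analysed here, and Serpina1c beyond it differed by -0.36. A probe set shared by Serpina1e, Serpina1c and Serpina1b differed by -0.74, with overlapping groups. Serpina10 and Serpina6 stand at one end of the cluster and Serpina3n at the other, with differences of 0.20, -0.27 and 0.00. Ppp4r4, the gene outside the cluster next to Serpina10, differed by 0.03 (6.61 in WT and 6.64 in ChLO).

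**Figure D2:**
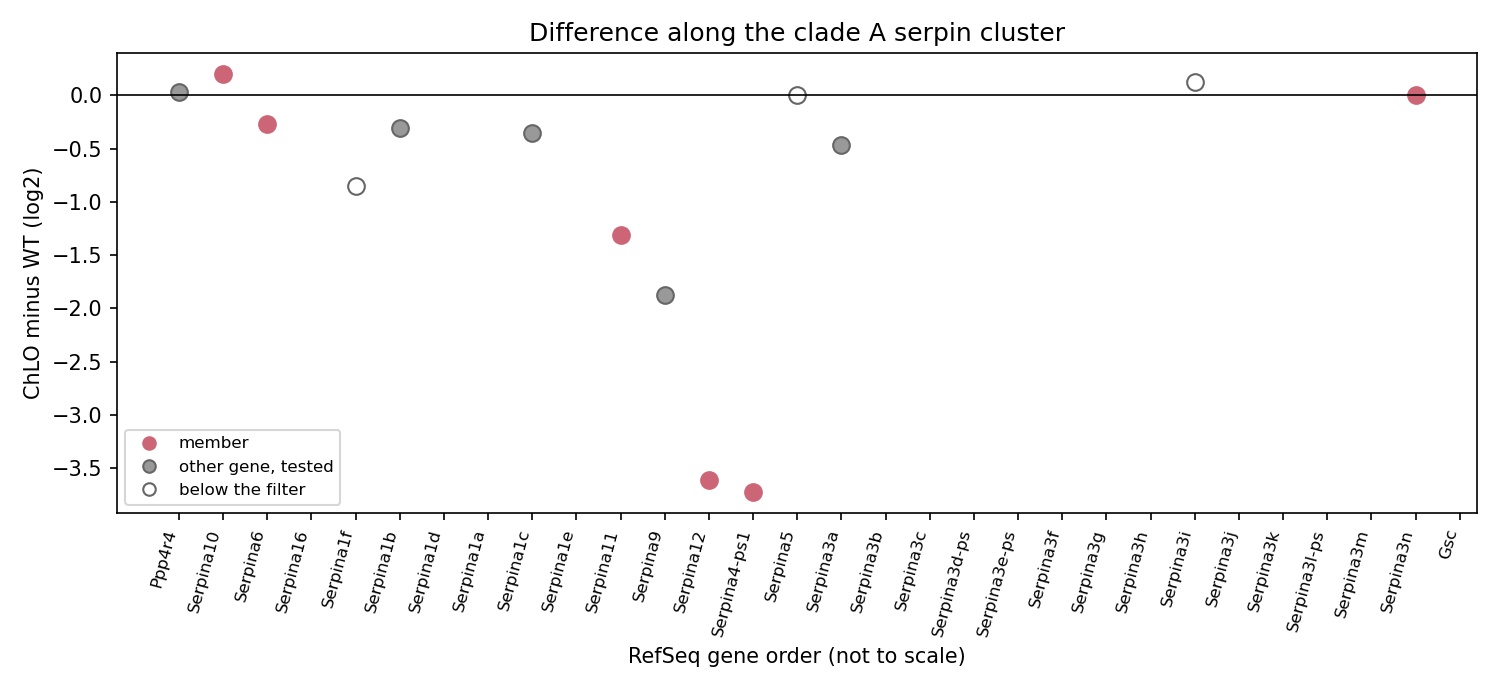
ChLO minus WT difference in log2 units (vertical axis) of the genes of the chromosome 12 serpin cluster in RefSeq order (horizontal axis, evenly spaced and not to scale), with members in red, other tested genes in grey and genes below the filter as open circles. Names without a point had no probe set of their own analysed. The 4 lowest values, from -1.32 to -3.73, belong to consecutive genes, of which Serpina9 had overlapping groups.

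Within WT, WT 3 was the highest WT liver for 5 of the 6 chromosome 12 members, the exception being Serpina6, and for 28.1% of all genes tested. It exceeded the mean of WT 1 and WT 2 by 1.92 for Serpina4-ps1, 0.93 for Serpina10, 0.74 for Serpina11, 0.66 for Serpina12 and 0.53 for Serpina3n. It was -0.45 for Serpina6, -0.10 for Serpina3a, and 0.19 and 0.18 for Serpina1b and Serpina1c. The dim Serpina9, not a member, had the largest excess of these, 2.29. An excess as large as that of Serpina4-ps1 was seen in 0.460% of all genes, and as large as that of Serpina9 in 0.246%. Over 10 tested serpins of the cluster WT 3 was highest for 8 (6 with quantile normalization). The summed hepatocyte markers were highest in WT 3 as well, at 424383 against 377104 in WT 1 and 374537 in WT 2, and their part in this was not tested.

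Vaspin is known from fat tissue, so fat cell markers were read beside it. Adipoq, the adiponectin gene that defines fat cells, was below the filter level on 5 of 6 arrays and read 5.56 on the remaining array, WT 3. Lep was below that level on every array. Of 5 adipocyte markers 4 were measured. By mean, 3 were higher in ChLO, the dim Lep among them, and 1, Adipoq, was lower. The summed signal, mostly Fabp4, was 906 to 1461 in WT and 1642 to 3269 in ChLO. The part of fat cells in the Serpina12 signal was not tested.

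The genes whose pattern was most like each member's were taken by Pearson correlation over the 6 arrays, as a description in which the genotypes form separate clusters. Closest to Serpina12 was Lpin1, a phosphatidate phosphatase of triglyceride synthesis (r = 0.99), followed by Rab4a and Serf2. Lpin1 read 13.49, 13.86 and 13.95 in WT and 11.71, 10.92 and 10.88 in ChLO, so ChLO 1 again kept the most signal. Serpina4-ps1 and Serpina11 were each other's closest match among all other genes tested (r = 0.99), and Rcbtb2 came next for both. After quantile normalization Itih1 came before Serpina4-ps1 in likeness to Serpina11. Serpina4-ps1 ranked 16 and Serpina11 ranked 44 of 12597 genes by likeness to Serpina12, and Mlxipl ranked 420.

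**Figure D3:**
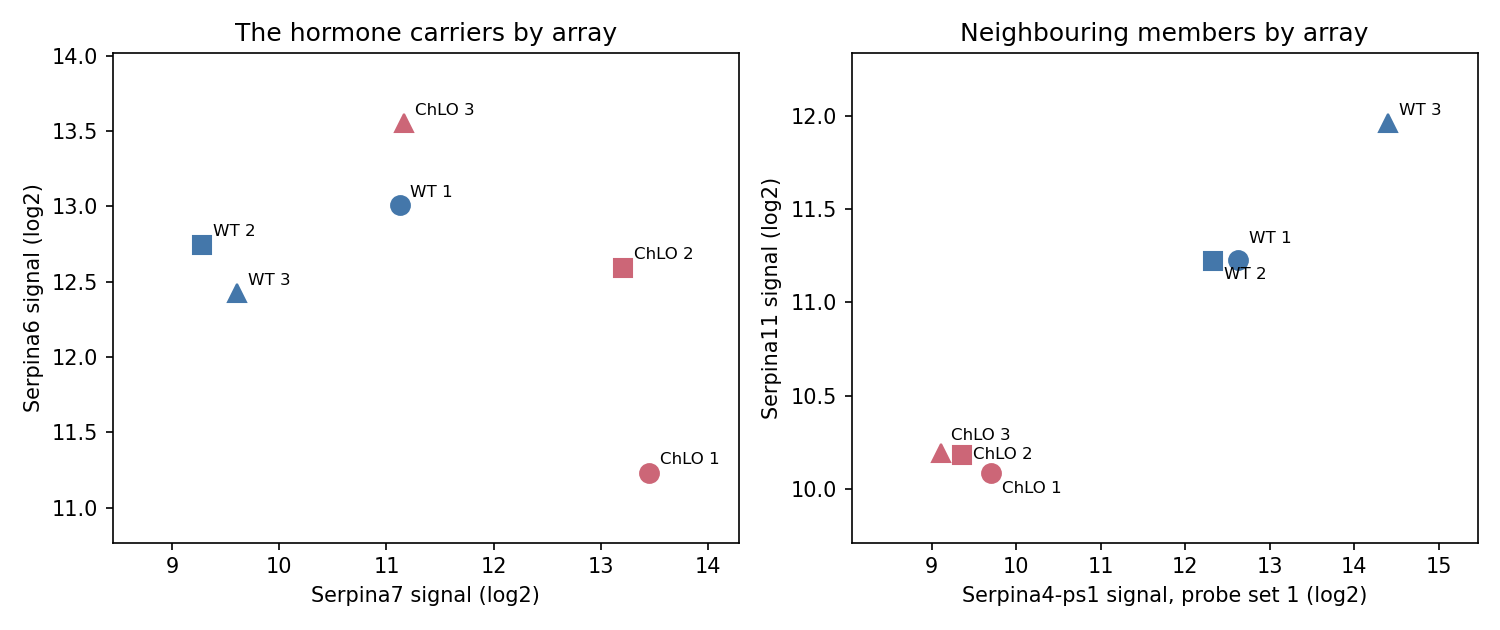
Log2 signals of 2 pairs of genes, with 1 labelled point per liver (blue WT, red ChLO). In the left panel Serpina6 (vertical axis) is plotted against Serpina7 (horizontal axis) and the ChLO livers run from ChLO 3 at 13.55 and 11.17 to ChLO 1 at 11.23 and 13.45. In the right panel Serpina11 (vertical axis) is plotted against Serpina4-ps1 (horizontal axis), and WT 3 stands apart at 11.96 and 14.40.

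For the other members the closest genes were Patl1, Stmn1 and Ccdc6 for Serpina7, Zfp446, Zfp654 and Mcrip2 for Serpina6, Pias2, Nfkbiz and Six5 for Serpina10, and Cmip, Fgfr1 and Ano1 for Serpina3n, with r from 0.97 to 1.00. With 6 arrays such matches are loose, and 11 of the 21 were named again after quantile normalization, none of them for Serpina10.

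Other clade A serpins were tested as a comparison. Of 20 listed, 8 had a probe set of their own and 5 passed the filter. All 5 had lower means in ChLO, with a median difference of -0.36, but 0 passed limma at an adjusted p under 0.05 and 0 had an unadjusted p under 0.05. The second count was 1 of 5 without ChLO 2 and 2 of 6 without ChLO 3. Over all genes those fits had 688 of 12609 and 2577 of 12587 at that threshold. Serpina9, known as centerin in germinal centre B cells, read 6.24, 6.18 and 8.50 in WT and 3.89, 6.66 and 4.73 in ChLO, a difference of -1.88 (SE 0.89) with a limma adjusted p of 0.582. Its WT mean rests on WT 3, without which the difference was -1.11. Serpina1c and Serpina1b, copies of the alpha-1 antitrypsin gene, differed by -0.36 (SE 0.19) and -0.31 (SE 0.19), with limma adjusted p of 0.606 and 0.644. They lie near the top of the arrays' range, their sequences are nearly identical so that signal may be shared, and quantile normalization left -0.05 and -0.01.

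Serpina3a differed by -0.47 (SE 0.40) and Agt, the angiotensinogen gene, by -0.15 (SE 0.21), which turned to 0.10 with spike-in scaling. Below the filter, Serpina1f had a mean of 5.90 in WT and 5.05 in ChLO, and Serpina3i 3.44 and 3.56. Relative to these, the differences of Serpina12 and Serpina4-ps1 were larger, but the difference between members and other serpins was not tested.

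Of 28 serpins of other clades, 12 were tested. limma called 0 at an adjusted p under 0.05. At an unadjusted p under 0.05 there were 1 lower and 4 higher, against 3.50% and 5.46% of all genes tested. That count of 5 ranged from 0 (without ChLO 2) to 7 (without ChLO 3), with 1 without WT 2, 2 without WT 3 and 3 without WT 1 or ChLO 1. Of the 12, 7 had lower and 5 higher means in ChLO (median -0.24). Serpinc1, antithrombin, differed by -0.40 (SE 0.19), Serpind1, heparin cofactor II, by -0.41 (SE 0.27), and Serpinf2, alpha-2 antiplasmin, by -0.16 (SE 0.20), which turned to 0.09 with spike-in scaling, where Serpinc1 and Serpind1 differed by -0.15 and -0.16. Clade B holds mostly serpins that act inside cells. Of the 5 listed genes of this clade that were tested, Serpinb9 (0.69, SE 0.26), Serpinb6b (1.05, SE 0.39), Serpinb8 (0.84, SE 0.34) and Serpinb6a had higher means, and Serpinb9b a lower one (-1.28, SE 0.54). A further probe set of Serpinb9 and of Serpinb8, each past the filter, differed by 0.44 and 0.21 with overlapping groups. With the mean of all probe sets, 1 of the 12 was lower and 2 higher at an unadjusted limma p under 0.05. Serpinb6e, which is not on the list, passed the filter too and differed by 0.20 (SE 0.30, limma adjusted p = 0.841). Serpinb6a read 9.75, 9.51 and 9.37 in WT and 11.94, 12.13 and 9.62 in ChLO, so ChLO 3 lay within the WT range. Its difference of 1.69 (SE 0.60, limma adjusted p = 0.498) became 2.49 without ChLO 3 (adjusted p = 0.00626), in a fit that called 301 genes. Serpinh1, a collagen chaperone, differed by 0.93 (SE 0.54, adjusted p = 0.630) and by 1.63 without ChLO 3 (adjusted p = 0.0199). Both were high in the 2 ChLO livers in which stellate cell markers were high. Myeloid markers, of which 7 of 8 were measured and 6 had higher means, summed to 9240 to 10030 in WT and 15345, 14364 and 8574 in ChLO 1, 2 and 3. The part of either cell type was not tested. With array weights limma called 3 of the 12, Serpinb6a, Serpinb6b and Serpinh1, and 568 of all 12598 genes. The fit with array weights did not reach its convergence tolerance.

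**Figure D4:**
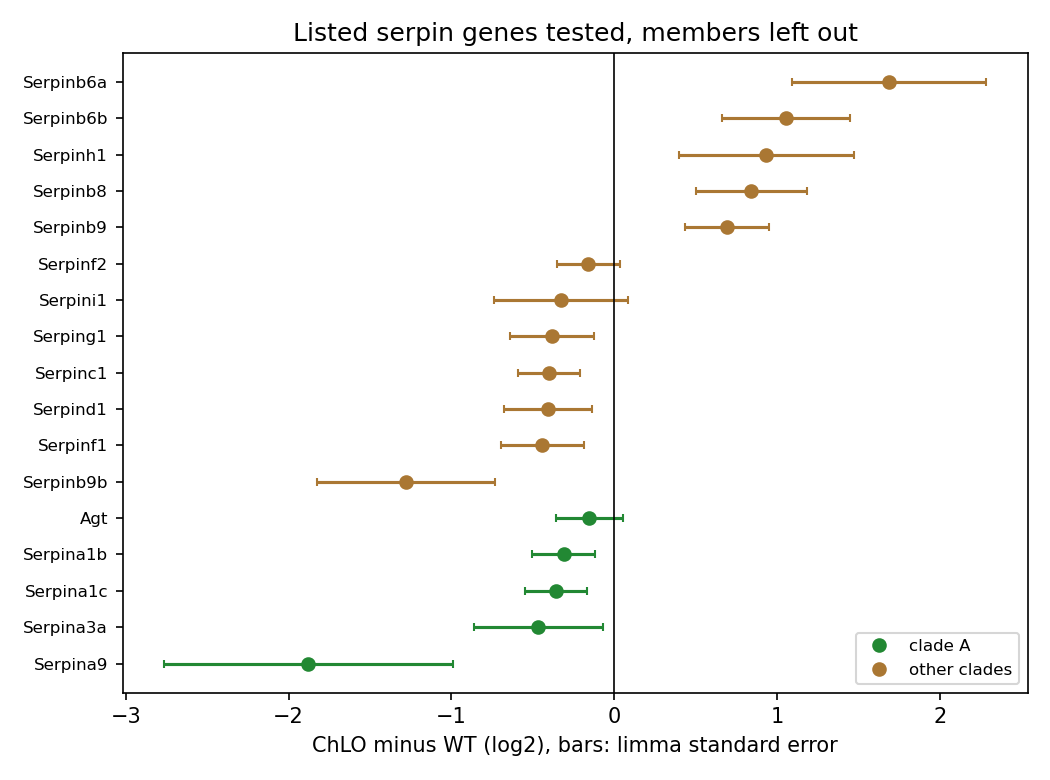
ChLO minus WT difference in log2 units (horizontal axis) of 17 serpin genes on the lists of other clade A and other clade serpins (Serpinb6e, on neither list, is not drawn), as points with bars of 1 limma standard error, green for clade A and brown for other clades. The clade A points all lie below 0, from -1.88 for Serpina9 to -0.15 for Agt (0.10 with spike-in scaling), and none passed the adjusted threshold.

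Genes of glucocorticoid handling were read beside Serpina6. Of 14 listed, 12 were tested, 8 with a lower and 4 with a higher mean in ChLO (median -0.22). In limma 0 passed over all genes tested. At an unadjusted p under 0.05, 1 was lower and 0 higher, against 3.50% and 5.46% of all genes tested. That gene was Hsd11b1, which regenerates active glucocorticoid in liver. It read 14.84, 15.07 and 14.92 in WT and 13.53, 13.93 and 14.67 in ChLO, a difference of -0.90 (SE 0.29, limma adjusted p = 0.457). Without ChLO 3, a fit that called 301 genes, it was -1.21 (adjusted p = 0.0259). Sgk1, a glucocorticoid-induced kinase, was then called higher at 1.07 (adjusted p = 0.0464), against 0.50 (SE 0.45) with all arrays. Nr3c1, the glucocorticoid receptor, differed by -0.23 (SE 0.20) and Tsc22d3, a classic target, by -0.63 (SE 0.39). Dusp1, a phosphatase that glucocorticoids induce, differed by 0.59 (SE 0.29), and Tat, tyrosine aminotransferase, by -0.36 (SE 0.22).

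Of 15 genes of thyroid hormone transport and action, set beside Serpina7, 12 were tested, 9 lower and 3 higher (median -0.35). In limma 0 passed, and 2 were lower and 2 higher at an unadjusted p under 0.05, against 3.50% and 5.46% of all genes tested. Slc16a10, a transporter of aromatic amino acids and thyroid hormone, read 9.48, 9.83 and 9.50 in WT and 10.77, 11.04 and 11.07 in ChLO, all above WT. Its difference was 1.36 (SE 0.18) with a limma adjusted p of 0.0977. Thrsp (-2.86, SE 0.41, limma adjusted p = 0.102) and Me1 (-3.37, SE 0.70, adjusted p = 0.246) respond to thyroid hormone and are textbook ChREBP targets too. Without ChLO 3, limma called Slc16a10 (1.30, adjusted p = 0.0253), Thrsp (-3.00, adjusted p = 0.0202) and Bcl3 (1.03, adjusted p = 0.0418), among 301 genes in all. Bcl3 differed by 0.84 (SE 0.22) with all arrays. Ttr, the other main thyroxine carrier of plasma, differed by -0.28 (SE 0.19) and Dio1, the liver deiodinase, by -0.81 (SE 0.50), so neither was higher as Serpina7 was.

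Of 14 clotting genes, set beside Serpina10, 14 were tested and 12 had lower means in ChLO (median -0.45). In limma 0 passed, with 5 lower and 1 higher at an unadjusted p under 0.05, against 3.50% and 5.46% of all genes tested. Proz, the protein Z that Serpina10 needs as cofactor, differed by -0.26 (SE 0.28), F10, its target, by -0.69 (SE 0.20, limma adjusted p = 0.451), and F11 by -0.37 (SE 0.37). Pros1, protein S, was higher at 0.61 (SE 0.16, limma adjusted p = 0.408). Ggcx, the vitamin K-dependent carboxylase, differed by -0.56 (SE 0.17). F7 differed by -0.71 (SE 0.24) and was called without ChLO 3 at -0.97 (adjusted p = 0.0306), among 301 genes called in that limma fit.

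Acute phase genes were read beside Serpina3n. All 19 listed were tested, 7 lower and 12 higher (median 0.16), and 0 passed in limma. At an unadjusted p under 0.05, 2 were lower and 4 higher, against 3.50% and 5.46% of all genes tested. Lcn2, lipocalin 2, read 9.33, 8.90 and 8.12 in WT and 13.25, 11.44 and 9.50 in ChLO, above WT in every ChLO liver, while the Serpina3n groups overlapped. Its difference was 2.61 (SE 0.83, limma adjusted p = 0.455) and 3.56 without ChLO 3 (adjusted p = 0.0220), in a fit that called 301 genes. Orm1, an orosomucoid, differed by -0.58 (SE 0.16), Cebpd by 1.05 (SE 0.34), and Osmr, the oncostatin M receptor, by 1.14 (SE 0.39). Cholangiocyte markers, of which 6 of 7 were measured and 5 had higher means, had a summed linear signal of 220 to 389 in WT and 1542, 753 and 379 in ChLO 1, 2 and 3. Cldn4 carried most of that sum in ChLO 1, and Epcam (6.01, 7.45 and 7.30 in ChLO 1, 2 and 3) and Krt19 (6.15, 6.30 and 5.91) did not follow its order. Cftr was below the filter level on all arrays, and their part was not tested.

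Of 11 proteases inhibited by these serpins or by related ones, or proteins reported to bind vaspin, 5 were tested. In limma 0 passed, also at an unadjusted p under 0.05. They included Dnajc1 (0.27, SE 0.16), Klk1 (-0.43, SE 0.33), Vdac1 (-0.22, SE 0.20) and Prtn3 (0.40, SE 1.36). Of 11 liver transcription factors, 9 were tested and 8 had lower means, and again 0 passed in limma or at an unadjusted p under 0.05. Hnf4a, a nuclear receptor that drives hepatocyte genes, differed by -0.36 (SE 0.18), Onecut1 by -1.02 (SE 0.53), Nr1h4 by -0.49 (SE 0.36) and Foxa2 by -0.51 (SE 0.41). Over these 6 partner lists, 71 distinct genes were tested and 0 called. At an unadjusted limma p under 0.05, 10 were lower and 7 higher, against 3.50% and 5.46% of all genes tested. With spike-in scaling the list counts were 4 and 10. The lists were chosen with earlier results of these data known. Array weights gave 16 calls, against 568 over all genes tested.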

How the data were processed

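The authors deposited 1 table of log2 signals for 45101 probe sets on 6 arrays, and MAS5 is named without version in the submitters' processing notes. The log2 scale was read from the values. The linear trimmed mean was 500 on every array, as MAS5 global scaling gives, so a change common to most RNAs is scaled away. No genome build is given in the sources used here, and detection calls and scanner files were not used. Probe sets were named through the platform annotation (34945 with 1 symbol, 932 with several, 9160 with none). After 64 controls, probe sets below the 40th percentile of mean signal were left out, and each gene was represented by its brightest probe set. limma 3.58.1 in R 4.3.3 (lmFit, eBayes with trend) compared ChLO with WT over 12598 genes with Benjamini-Hochberg adjustment, after being tested on simulated data. The SE of members comes from the same fit on all probe sets. Text names all members and clade A serpins, up to 4 genes per list with the smallest p, and 3 best-correlated genes per member, besides neighbours and others named for their role after their values were seen. Members and lists were chosen with earlier results of these data known. Replicates are separate mice per the labels, so p-values measure spread between mice. Alternatives changed normalization, filter, variance model, array weights, probe set choice, pairing and the arrays included. Array number limits the precision.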

Additional observations from a re-analysis of the deposited data

How the results depend on the processing

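limma called 0 genes with all arrays. Leaving out each array in turn gave 0 to 301 calls over all genes, 0 to 2 among serpins of other clades, 0 to 7 among the partner lists and 0 among other clade A serpins. Without a filter there were 3 calls over all genes, without _x and _s probe sets 3, and with array weights, whose fit did not reach its convergence tolerance, 568, with 3 among serpins of other clades and 16 among the partner lists. The replicate block gave 1 call, lower, which was Me1 of the partner lists (adjusted p = 0.00738). Same-numbered arrays were not taken as pairs, since the correlations of their deviations from the group means were 0.30, -0.17 and 0.06 and 2 of 6 arrays correlated best with their own number. The other normalizations, filters and variance models gave 0 calls in all 4 sets. With spike-in scaling 2013 genes had an unadjusted p under 0.05, against 1129. The difference of Serpina12 ran from -3.30 to -4.12 over the fits that left out 1 array, that of Serpina11 between -1.07 and -1.44 and that of the brightest Serpina4-ps1 probe set between -3.09 and -4.12. Dim probe sets limit what can be read of Serpina9 and of the second Serpina12 probe set. For likeness, Spearman's rank correlation named 1 of the 21 genes again, since many genes tie over 6 arrays.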
